A study of Homo sapiens with 4 samples.

Results

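The BEX and TCEAL genes, 2 families of small X-linked genes, were followed on 4 Affymetrix PrimeView arrays of Caco-2 and HCT116 cells, both established lines from human colorectal cancers. The 9 genes BEX1, BEX2, BEX3, BEX4, BEX5, TCEAL1, TCEAL4, TCEAL8 and TCEAL9 were chosen by name with their measured values on these arrays already known, so their values are given as a description, without a test. All 12 probe sets that the platform annotation pairs with 1 of these genes alone were taken, of 49395 probe sets in all, and the 9 genes stand among 18132 genes with such a probe set. Each line received siRNA against BORIS, the product of the CTCFL gene, or a negative control siRNA, by lipid transfection over 3 days. The 4 groups were Caco-2 with control siRNA, Caco-2 with BORIS siRNA, HCT116 with control siRNA and HCT116 with BORIS siRNA, with 1 array each, so differences within a line have no replicate check. The labels do not say whether the arrays of a line came from separate cultures.

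BEX genes (brain expressed, X-linked) encode short, largely unstructured adaptor proteins that bind signalling and transcription proteins, and several are abundant in neurons. TCEAL genes encode nuclear proteins that resemble part of the transcription elongation factor TFIIS. The families lie beside each other on the long arm of the X chromosome, arose by duplication in placental mammals, and have been studied in tumours as genes that are often silenced. BORIS is a testis paralog of the insulator protein CTCF and has similar DNA-binding zinc fingers.

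The start regions of the genes are shown first because some closely alike ones belonged to genes with different levels on these arrays. The sequences are RefSeq promoter windows of build GRCh38.p14, which hold 250 bases before and 50 after an annotated start, and all 9 genes matched, with 14 windows. The windows of BEX2 and BEX4 aligned over 304 columns with 257 identical (84.5%), and the longest run shared without a difference was 45 bases. The 250 bases upstream of the BEX2 start (chrX:103310991-103311240, minus strand) and of the downstream one of the 2 BEX4 starts (chrX:103214858-103215107, plus strand) are printed with the letters CACGTG, an E-box, in capitals. This hexamer is the usual site of basic helix-loop-helix factors such as USF1 and MYC with MAX.
BEX2: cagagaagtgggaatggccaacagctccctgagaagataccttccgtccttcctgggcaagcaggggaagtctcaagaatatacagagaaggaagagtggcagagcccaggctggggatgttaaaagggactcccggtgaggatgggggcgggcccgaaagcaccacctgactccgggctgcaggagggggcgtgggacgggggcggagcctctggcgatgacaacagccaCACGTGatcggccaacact
BEX4: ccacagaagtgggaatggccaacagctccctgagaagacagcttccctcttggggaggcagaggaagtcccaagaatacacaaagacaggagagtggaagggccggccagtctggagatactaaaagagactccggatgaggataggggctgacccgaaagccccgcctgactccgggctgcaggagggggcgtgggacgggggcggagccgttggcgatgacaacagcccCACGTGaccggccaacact

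The hexamer stands at position -19 in both, counted from the start, and it reads the same on both strands. It was picked after the windows had been read. It was found in at least 1 window of 7 of the 9 genes, where 8.77% of the 27305 genes in the RefSeq table have it, and in 8 of the 14 member windows, where 7.26% of all 35116 windows do. The 2 BEX4 windows overlap and hold the same site, which is counted in both. BEX5 and TCEAL9 were the 2 genes without the hexamer. The longer CACGTGACC occurred in BEX1, BEX3, BEX4, TCEAL1 and TCEAL8, where 1.53% of genes have it on either strand. The hexamer within 30 bases is printed for the other 5 genes that hold it, to show how alike its surroundings are.
BEX1 (chrX:103064201-103064230, minus strand): acgcacggccctCACGTGaccgggagctgc
BEX3 (chrX:103376479-103376508, plus strand): acgcgcggccctCACGTGacccagagctgc
TCEAL1 (chrX:103628907-103628936, plus strand): acgcgcgtccctCACGTGaccaggagcctc
TCEAL8 (chrX:103255169-103255198, minus strand): tgacgcgactctCACGTGaccaggagtcga
TCEAL4 (chrX:103585493-103585522, plus strand): ggctgcggcattCACGTGatctgcacgggc

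BEX1 and BEX3 were identical at 27 of these 30 bases, BEX1 and TCEAL1 at 25, and BEX1 and TCEAL4 at 17. The whole window of BEX1 and window 2 of the 3 BEX3 windows aligned over 301 columns with 237 identical (78.7%). Which start the cells used was not measured. TCEAL8 and TCEAL9 shared a stretch of 122 columns with 97 identical (79.5%). Other letters searched on both strands were the GC box GGGCGG, held by 7 of the 9 genes and 48.3% of all genes, the CCAAT box, held by 4 and by 39.7%, the TATA box TATAAA, held by 0 and by 14%, and GGNGGCAG, part of the known CTCF motif, held by BEX3 and BEX4 and by 19.3% of all genes. Overlap between different motifs was not counted. The count of CG dinucleotides ran from 5 in the upstream window of TCEAL1 to 32 in the most downstream of 3 BEX3 windows, with 17 for BEX2, 25 for BEX1 and a median of 14 over all windows. A match describes letters in a window and is not evidence of binding.

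Each probe set has a log2 value on each array. Probe sets for olfactory receptors, genes mostly silent outside the nose, set the background of an array at their 95th percentile, which was 5.05 and 4.80 on the Caco-2 arrays with control and BORIS siRNA and 5.09 and 5.15 on the matching HCT116 arrays. Of the 9 genes, 6 were above background on at least 1 array. Of these, 3 were above it in both lines, 2 in HCT116 alone and 1 in Caco-2 alone. A different number of cells and a different amount of RNA per cell cannot be told apart in such bulk samples.

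**Figure D1:**
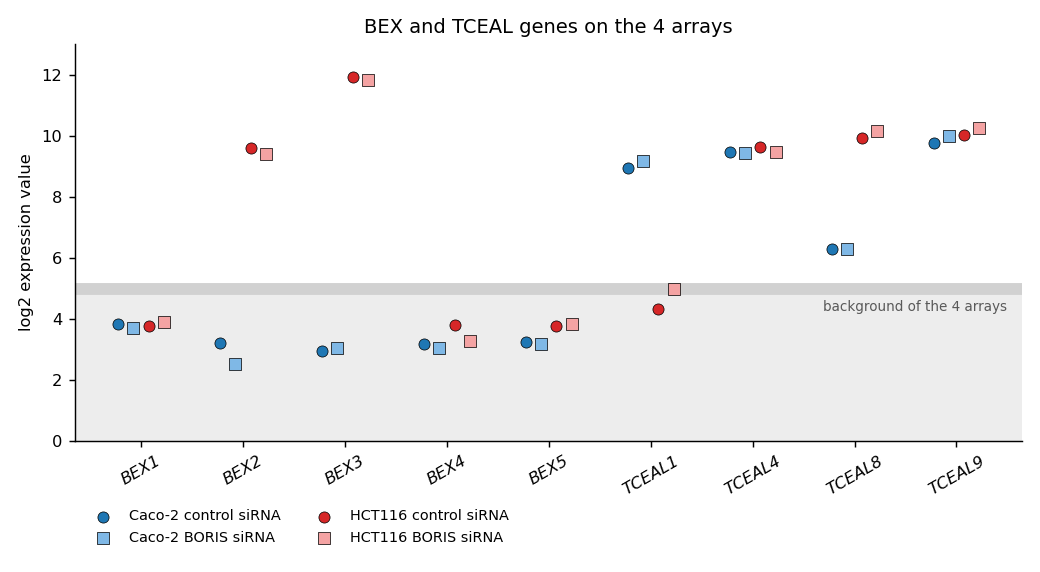
Log2 expression value (y axis) of the brightest probe set of each BEX and TCEAL gene on the 4 arrays (circles control siRNA, squares BORIS siRNA, blue Caco-2, red HCT116; 1 array per point). The darker grey band spans the background of the 4 arrays, 4.80 to 5.15. BEX2, BEX3 and TCEAL8 are higher in HCT116, TCEAL1 is higher in Caco-2, TCEAL4 and TCEAL9 are above background on all 4 arrays, and BEX1, BEX4 and BEX5 lie below background on every array.

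BEX3, also known as NGFRAP1 or NADE, is an adaptor that binds the p75 neurotrophin receptor. Its probe set read 2.94 and 3.04 in Caco-2 with control and BORIS siRNA, and 11.91 and 11.81 in HCT116. Both HCT116 arrays were far above background and both Caco-2 arrays below it. The HCT116 value exceeded the Caco-2 background by 6.86 with control siRNA and by 7.01 with BORIS siRNA, which is at least 116-fold and at least 129-fold. Its only probe set is of the _s_at kind, which can bind related transcripts, and without such probe sets the gene has no value.

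BEX2, which binds the haematopoietic transcription factor LMO2, showed the same split. It read 3.20 and 2.51 in Caco-2 and 9.60 and 9.41 in HCT116. HCT116 was higher by at least 4.55 with control siRNA and at least 4.61 with BORIS siRNA, or at least 23.4-fold and 24.4-fold.

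The other BEX genes gave no signal above background. BEX1, another binding partner of the p75 neurotrophin receptor, stayed between 3.70 and 3.89, BEX4, a protein associated with microtubules, between 3.05 and 3.80, and BEX5 between 3.18 and 3.83. They have no fold, and each rests on 1 probe set. The 2 pairs of BEX genes with alike start regions thus parted in HCT116. BEX2 was above background there and BEX4 was not, and BEX3 was above it and BEX1 was not. In Caco-2 all of these genes were below background. TCEAL8 and TCEAL9, which also share an alike stretch, were by their brightest probe sets both above background in both lines. They still differed in how far the lines were apart. HCT116 minus Caco-2 was 3.65 with control and 3.85 with BORIS siRNA for TCEAL8, and 0.24 and 0.27 for TCEAL9.

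Of the 4 TCEAL members, TCEAL1 was high in the other line. This nuclear phosphoprotein, which modulates transcription, read 8.94 and 9.17 in Caco-2 with control and BORIS siRNA, and 4.32 and 4.96 in HCT116, below background. Caco-2 was higher by at least 3.85 with control siRNA and at least 4.01 with BORIS siRNA, or at least 14.4-fold and 16.1-fold. Its only probe set is, like that of BEX3, of the _s_at kind.

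TCEAL8 was above background in both lines and higher in HCT116. Its brighter probe set read 6.29 on both Caco-2 arrays and 9.93 and 10.14 in HCT116, so HCT116 was higher by 3.65 with control and 3.85 with BORIS siRNA, or 12.6-fold and 14.4-fold. Its other probe set read 4.88 and 4.68 in Caco-2, below background, and 8.25 and 8.72 in HCT116. Both probe sets of the gene therefore separated the lines the same way.

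TCEAL4 and TCEAL9 were above background on all 4 arrays. TCEAL4 read 9.47 and 9.42 in Caco-2 and 9.62 and 9.46 in HCT116, which are differences between lines of 0.15 and 0.04. TCEAL9, once named WBP5 for its binding to WW domains, read 9.77 and 9.99 in Caco-2 and 10.01 and 10.26 in HCT116, differences of 0.24 and 0.27. Its other 2 probe sets read 8.06 to 8.82 and 9.37 to 10.01 over the 4 arrays, with the highest value in HCT116 with BORIS siRNA in each. With BORIS siRNA these 2 probe sets differed between lines by 0.76 and 0.42, and with control siRNA by 0.17 and 0.20. The median size of the line difference over all 12064 genes was 0.40 with control and 0.47 with BORIS siRNA; both TCEAL4 differences were smaller, while those of TCEAL9 with BORIS siRNA lay on either side of it depending on the probe set.

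Members and all genes were counted where above background on at least 1 array, which holds for 6 of the 9 members and for 12064 genes. At a difference of 1 or more on the log2 scale under both siRNAs, 3 of these 6 members (BEX2, BEX3 and TCEAL8) were higher in HCT116, where 7.49% of the genes were. TCEAL1 was lower in HCT116, where 7.32% were. The members were chosen with these values known, so nothing is read from the counts. TCEAL8 was above background on all 4 arrays, so its difference has a measured size, while BEX2, BEX3 and TCEAL1 have bounds only. No ranks are given, because the 12064 genes include others that were below background in a line.

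**Figure D2:**
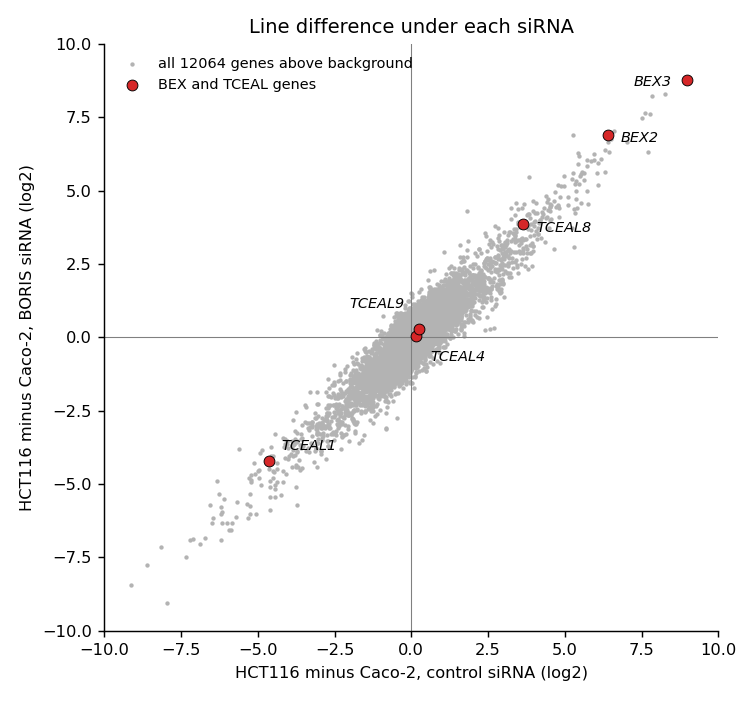
Difference between lines, HCT116 minus Caco-2, in log2 values with control siRNA (x axis) and with BORIS siRNA (y axis). Grey points are all 12064 genes above background on at least 1 array, and red points are the 6 BEX and TCEAL genes among them. Values below background are plotted as given, so the places of BEX2, BEX3 and TCEAL1 are not measured sizes; TCEAL8 lies at 3.65 and 3.85, and TCEAL4 and TCEAL9 lie near the centre.

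Along the chromosome, the members high in HCT116 (TCEAL8, BEX2 and BEX3) came before TCEAL1, the member high in Caco-2. TCEAL9 and TCEAL4, at like levels in both lines, stood among them, and BEX5, BEX1 and BEX4, below background, came first. ZMAT1 and TCEAL6, lower in HCT116 in the fit below, lie before BEX5. Whether this order has a meaning was not tested. Ordered by their RefSeq starts, 18 measured genes run from BEX5 to TCEAL1, 9 of them members. Of the other 9, 6 were below background on all 4 arrays, ARMCX5 was above it on all 4, TMSB15A was higher in HCT116 and TCEAL3 was higher in Caco-2. In this order BEX2, high in HCT116, lies between TCEAL5 and TCEAL7, both below background, and BEX3 lies between TCEAL9, which was above background in both lines, and RAB40A, which was below background. TCEAL3 and TCEAL1, both higher in Caco-2, are adjacent, and GPRASP1, GPRASP3, BEX1, NXF3 and BEX4, all below background, follow each other.

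**Figure D3:**
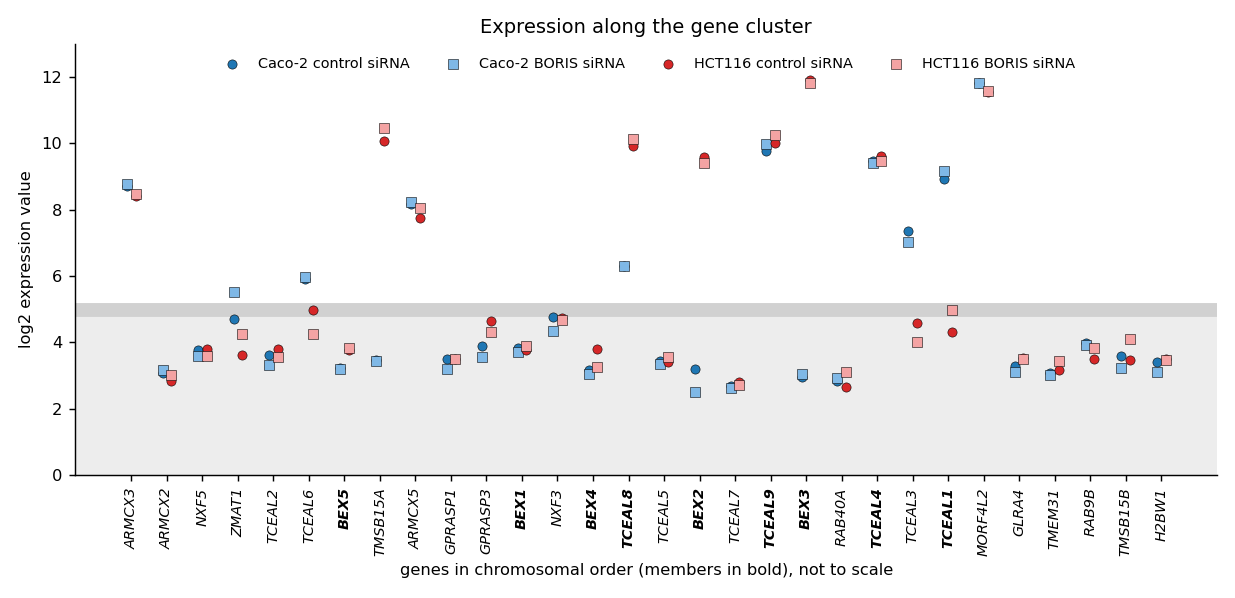
Log2 expression values (y axis) of 30 measured genes in their order on the X chromosome (x axis, not to scale; members in bold, with 6 measured genes on either side), 1 point per array, coloured by line and shaped by siRNA. The grey band spans the background of the arrays. Genes high in HCT116 (TMSB15A, TCEAL8, BEX2, BEX3), genes high in Caco-2 (TCEAL3, TCEAL1), genes above background in both lines and genes below it on all arrays are seen in this stretch, with both single genes and runs of like genes.

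TMSB15A, a thymosin beta gene that lies between BEX5 and BEX1, read 3.45 and 3.43 in Caco-2 and 10.06 and 10.46 in HCT116. HCT116 was higher by at least 5.01 with control and at least 5.66 with BORIS siRNA. In a limma fit over all 12064 genes with siRNA as a further term, its adjusted p for the line was 3.26e-05. Under the alternatives it was between 4.25e-19 and 0.000129. The prior degrees of freedom, which set how much spread is borrowed across genes, ran from 4.12 without a trend to 23.93 after a loess correction. TCEAL3 read 7.37 and 7.02 in Caco-2 and 4.57 and 4.01 in HCT116, lower there by at least 2.28 and 1.86 (limma adjusted p = 0.000271). With line and siRNA as terms, each line p-value sets the line difference against a spread. That spread comes from how unequal the line difference was under the 2 siRNAs, with 1 residual degree of freedom. It is also borrowed across genes (prior degrees of freedom 4.80), and it is not the spread between cultures. The fit took values below background as given. For TMSB15A, TCEAL3 and every other tested gene below background in a line, the fitted difference and its spread thus rest in part on such values.

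The 5 TCEAL genes outside the 9 were TCEAL2, TCEAL3, TCEAL5, TCEAL6 and TCEAL7. Of these, 3 were below background on all arrays, and 2 were tested and both lower in HCT116 by limma, where 17.9% of genes were higher and 18% lower. The second was TCEAL6, named here after its values were seen. Its brighter probe set, of the _x_at kind, read 5.92 and 5.98 in Caco-2 and 4.96 and 4.24 in HCT116 (limma adjusted p = 0.0111), whereas its other probe set read 3.06 to 3.25, below background. TCEAL3 and TCEAL6 are closely related, a probe set paired with both read 7.23 and 6.91 in Caco-2 and 3.48 and 4.13 in HCT116, and their signals cannot be separated on this array. Both were below background in HCT116, so their list has no median size; over all genes the median line difference was 0.007 with control and 0.018 with BORIS siRNA.

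ARMCX and GPRASP genes, armadillo-repeat and receptor-sorting protein genes of the same chromosomal stretch with the autosomal relative ARMC10, had 9 measured of 10 listed members. Of these, 5 were below background on all arrays and 4 were tested, with medians of -0.35 and -0.24. Over all genes, 17.9% were higher and 18% lower in HCT116 by limma. ARMC10 alone passed the line test (-0.58, SE 0.15, limma adjusted p = 0.0265, and 0.0594 without a trend), so no X-linked member did. It was named after its values were seen. The E-box stood in the start windows of 9 of 13 such neighbours and other family members, namely TCEAL2, TCEAL3, TCEAL5, TCEAL6, ARMCX1, ARMCX2, ARMCX4, ARMCX6 and GPRASP3.

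Of 25 further genes listed around the cluster, 20 were measured, 13 were below background throughout and 7 were tested, with medians of -0.57 and -0.47. These medians include TMSB15A and ZMAT1, which were below background on some arrays. TMSB15A was higher in HCT116, where 17.9% of all genes were by limma, and ZMAT1 and FAM199X were lower, where 18% were. ZMAT1 was above background on 1 array, at 5.52 in Caco-2 with BORIS siRNA, against 4.26 in HCT116 with BORIS siRNA and 4.69 and 3.62 in the controls. FAM199X, named after its values were seen, differed by -0.90 (SE 0.19, limma adjusted p = 0.0141).

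Between siRNAs, no member reached a difference of 1 in either line. In Caco-2, 4 of the 9 were above background on both arrays. TCEAL1 and TCEAL9 were each higher by 0.22 with BORIS siRNA, TCEAL4 differed by -0.05 and TCEAL8 by 0.01, with the sign turned after quantile normalization (-0.02), a loess correction (-0.01) and averaging of its probe sets (-0.10). Of 11480 genes above background there, 0.444% were higher and 0.0523% lower at 2-fold, so a count of 0 among 4 is near the background. All 4 values lay between the 5th and 95th percentiles of all genes, -0.39 and 0.48.

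In HCT116, 5 members were above background on both arrays. TCEAL9 was higher by 0.25 and TCEAL8 by 0.21 with BORIS siRNA, and BEX3 differed by -0.10, TCEAL4 by -0.16 and BEX2 by -0.19. Of 11351 genes, 0.573% were higher and 1.49% lower at 2-fold, and the percentiles were -0.73 and 0.56. Other probe sets of the same genes gave larger differences in HCT116, 0.60 and 0.43 for TCEAL9 and 0.47 for TCEAL8, and with probe sets averaged TCEAL9 differed by 0.43 and TCEAL8 by 0.34. The 0.60 lies above the 95th percentile of all genes. None of these has a replicate spread to be set against.

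**Figure D4:**
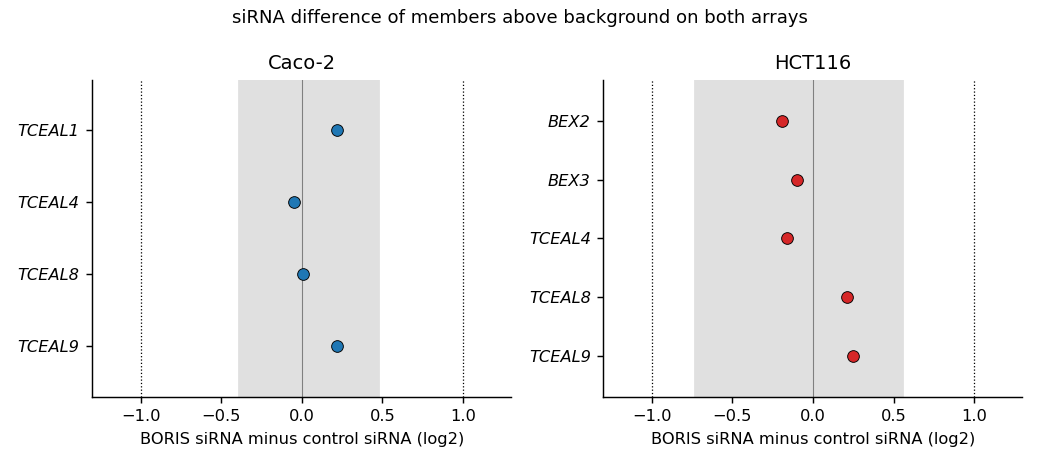
Difference in log2 value, BORIS siRNA minus control siRNA (x axis), for the BEX and TCEAL genes above background on both arrays of Caco-2 (left, 4 genes) and HCT116 (right, 5 genes), 1 array per siRNA. Grey shading spans the 5th to 95th percentile of all genes above background in that line and dotted lines mark a 2-fold difference. Each gene is shown by its brightest probe set, and every such point lies inside the shading; another TCEAL9 probe set, not shown, differed by 0.60 in HCT116, outside it.

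The line differences far exceeded the siRNA differences for the genes that split the lines. BEX3 differed between lines by at least 6.86 and between siRNAs in HCT116 by -0.10, and TCEAL1 between lines by at least 3.85 and between siRNAs in Caco-2 by 0.22. CTCFL, the target, had 7 probe sets with values from 2.57 to 5.09, of which 1 was above background on any array, so the arrays give no check of the knockdown. In the limma fit of an siRNA effect shared by both lines, 0 of 12064 genes passed in either direction (0% higher and 0% lower), 700 had an unadjusted p under 0.05, and the smallest adjusted p was 0.777. The 56 tested list genes are part of these, so 0 of them passed. After quantile normalization of the arrays 4 genes of the whole set passed, and after a loess correction 5.

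The elongation machinery that gives TCEAL genes their name was also followed. Of 29 measured genes, which included the TFIIS genes, elongin, NELF, DSIF, PAF1 complex and P-TEFb genes, 28 were tested for the line, 6 were higher in HCT116, where 17.9% of all genes were, 2 lower, where 18% were, and 20 not called, with medians of 0.13 and -0.10. SUPT4H1, a DSIF subunit, read 9.55 and 9.35 in Caco-2 and 10.79 and 11.01 in HCT116, a fitted difference of 1.45 (SE 0.17, limma adjusted p = 0.00218). The following were named after their values were seen. Of the TFIIS genes, TCEA2 was higher in HCT116 by 1.16 (SE 0.26, limma adjusted p = 0.0186) and TCEA3 lower, at -0.86 (SE 0.19, limma adjusted p = 0.0184). TCEA1, the ubiquitous form, read 10.80 and 11.04 in Caco-2 and 10.77 and 10.75 in HCT116. CTR9, CCNT2, ELOB and ELOC were the other higher genes and AFF4 the other lower one, and ELOB (adjusted p = 0.0676) and ELOC (0.0566) were not called without a trend, nor AFF4 (0.0514) with a gene's probe sets averaged.

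Neurotrophin receptor genes, the pathway in which BEX3 and BEX1 act, had 14 measured members of 19, of which 10 were tested, with medians of -0.26 and -0.15. By limma 1 was higher in HCT116, where 17.9% of all genes were, and 2 lower, where 18% were. BDNF, a neurotrophin, was higher in HCT116, with 3.43 and 3.75 in Caco-2, below background, and 9.05 and 9.10 in HCT116, at least 16-fold and 19.8-fold apart (limma adjusted p = 4.13e-05). The Nogo receptor gene RTN4R differed by -2.43 (SE 0.18, limma adjusted p = 0.000364) and the kinase gene IRAK1 by -1.99 (SE 0.17, limma adjusted p = 0.000703). NGFR, the p75 receptor gene itself, read 5.47 and 5.00 in Caco-2 and 5.27 and 5.05 in HCT116, close to background on every array, and did not pass. The other tested genes of the list also did not pass.

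Of 10 genes for reported partners of the BEX proteins and related factors, 8 were tested, with medians of 0.16 and 0.13. Of these, 1 was higher in HCT116 by limma, where 17.9% of all genes were, and 0 lower, where 18% were. LMO2, the partner of BEX2, read 3.97 and 3.44 in Caco-2, below background, and 6.56 and 6.53 in HCT116, higher by at least 1.51 and 1.74 (limma adjusted p = 0.000553). LMO2 and BEX2 were thus both above background in HCT116 alone. A link between them was not tested. RIPK2, YWHAE, LDB1, SIRT2 and PLK1 did not pass the line test.

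The genes with the pattern most like that of BEX3, the member with the widest range, were found by the root mean square difference of centred log2 values over the 4 arrays, among 3836 genes with a range of at least 1. They were GAL, which encodes the neuropeptide galanin, at 0.30, the cancer-testis gene MAGEB2 at 0.46, the fatty acid elongase gene ELOVL5 at 0.59, GTSF1, a germ cell gene of the piRNA pathway, at 0.64 and ADIRF at 0.72. GAL read 3.03 and 2.86 in Caco-2 and 11.29 and 11.17 in HCT116, and MAGEB2 3.36 and 2.98 against 11.20 and 11.19. All 5 were below background in Caco-2, as was BEX3, so the differences rest in part on values that have no order and the ranking among the 5 is not a measured one, and 4 arrays from 2 lines allow many genes to share such a pattern.

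Facts of the whole set that touch these results were few. Array medians lay between 5.46 and 5.48, the arrays of a line correlated at 0.994 in Caco-2 and 0.988 in HCT116 across probe sets, and arrays of different lines at 0.934 to 0.939. All 10 intestinal epithelial markers were above background in Caco-2 and 8 in HCT116, where VIL1 and LGALS4 were below it. All 10 passed the line test, 7 lower in HCT116 and 3 higher (CDH1 by 1.98, CDX2 by 1.59 and KRT19 by 0.60). Over all 12064 genes, 18% were lower and 17.9% higher on this test, and these shares stand beside each marker list below too. Neuronal markers matter here because several BEX genes are abundant in neurons. Of 12 such markers, 6 were below background throughout, among them NEFL, NEFM, SYN1, ELAVL4 and DCX. SYT1 and MAP2 passed as higher in HCT116, while RBFOX3, SNAP25, GAP43 and TUBB3, above background on every array, did not pass. The log2 values of all 12, those below background included, summed to 59.4 to 59.6 in Caco-2 and 67.1 to 67.9 in HCT116, and SYT1 (3.85 and 3.33 against 8.29 and 7.66) and MAP2 (4.09 and 4.85 against 6.73 and 5.81) made up most of that gap with control siRNA. Of 8 measured neuroendocrine markers, 5 were below background throughout, namely CHGA, CHGB, INSM1, SCG3 and UCHL1. SCG2 passed as higher in HCT116, and SYP and ENO2, above background on every array, did not pass. The log2 values of these 8 summed to 33.9 to 34.7 in Caco-2 and 39.7 on both HCT116 arrays. No fibroblast marker of 8 was above background. Of 6 endothelial markers 3 were, with ESAM lower in HCT116, while VWF and KDR, above background on every array, did not pass. PECAM1, CDH5 and TEK were below background. Of 5 measured blood markers, 2 were above background in Caco-2 and 1 in HCT116. LYZ, which intestinal Paneth cells also express, was lower in HCT116, and HBB, above background on every array, did not pass. PTPRC, CD3E and CD14 were below background. Whether such marker differences have a part in the BEX and TCEAL differences was not tested.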

How the data were processed

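The authors deposited log2 expression values for 49395 probe sets on 4 PrimeView arrays, made from biotin-labelled cRNA; values of 2.13 to 14.17 bear the unit out, and how they were normalized and summarised is not given in the sources used here. Probe sets were named through the platform annotation; 44988 were paired with 1 gene, 1832 with several and 2569 were not listed, and a RefSeq table of GRCh38.p14 changed 0 symbols. A gene was its brightest probe set by mean over the arrays, among 18132 genes. Background came from 367 olfactory receptor probe sets (95th percentile), and differences from values below it are lower bounds.

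Members were described by differences and counted at 2-fold. Genes of lists were tested with limma (version 3.58.1, under R 4.3.3), by lmFit and a trended eBayes (line and siRNA as terms, 12064 genes above background on at least 1 array) at a Benjamini-Hochberg adjusted p under 0.05, after a test on simulated data. The members and lists were chosen with earlier results of these data known. List genes were named where they differed 2-fold between lines under both siRNAs or between siRNAs, the others as stated. The 5 genes most like BEX3 were named. Likeness to the mean of all members, a mean that includes 3 members below background on every array, is not given. Promoter windows were aligned with Biopython 1.88 (local, match 2, mismatch -3, gap -5 and -2). Alternatives were the mean of probe sets, no _x_at or _s_at probe sets, a quantile or a loess normalization, 16 added on the linear scale and values raised to background, and for the tests no filter and no trend. The number of arrays limits the precision, and no columns of other samples were used.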

Additional observations from a re-analysis of the deposited data

How the results depend on the processing

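The count of members higher in HCT116 at 2-fold stayed at 3 under 5 of 6 alternatives and was 2 without _x_at and _s_at probe sets, and the counts between siRNAs were 0 under all 6. The count of members lower in HCT116 went from 1 to 0 without _x_at and _s_at probe sets, because TCEAL1 has no probe set of another kind; BEX3, BEX5 and TCEAL9 likewise have no value there. Of 116 values of single members under alternatives, 105 moved by less than 0.45, the SD over all genes of the line difference under one siRNA minus that under the other, and 11 moved further. No difference of 1 or more turned sign; the siRNA difference of TCEAL8 in Caco-2, 0.01, became -0.10, -0.02 and -0.01 with probe sets averaged, quantile and loess normalization. The 11 were the line differences of BEX2, BEX3 and TCEAL1 with 16 added or with values raised to background: 4.98, 5.01, 4.55 and 4.61 for BEX2, 7.35, 7.21, 6.86 and 7.01 for BEX3, and -3.82, -3.65 and -3.85 for TCEAL1. Of 56 list genes tested for the line, 18 passed and 4 of these were not called under at least 1 alternative; 12 were called under all 5, and TCEAL6 and ZMAT1 under the 4 in which they were tested. The line test called 4339 of 12064 genes, and 3873 to 5272 under the alternatives. The labels give no replicate numbers to pair arrays by, and with 1 array per group no array could be left out of a group. Signal below background leaves BEX1, BEX4 and BEX5 without a fold and BEX2, BEX3 and TCEAL1 with bounds.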
